A study of Mus musculus with 2 samples.

Results

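The proteasome genes described here were those measured by a probe set whose single platform annotation symbol begins with Psma, Psmb, Psmc, Psmd, Psme, Psmf or Psmg followed by a digit. This rule found 49 of the 18193 genes that could be named on the array. Of these, 47 encode proteasome subunits, activators, an inhibitor or assembly chaperones, and 2, Psmc3ip and Psme3ip1, share only the letters and were set apart. Where a gene had several probe sets, the brightest one on average stands for it. A gene was analysed when its higher value reached 78.4, the median intensity of all probe sets, which is called the floor below. This left 45 of the 47 genes, among 11920 genes above the floor in all.

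The study measured gene expression in mouse bone marrow cultures that form myeloid-derived suppressor cells (MDSCs), immature myeloid cells that restrain T cells. Fresh bone marrow cells of C57BL/6 mice received a control siRNA or silncMDSC, and both cultures were then kept with GM-CSF and IL-6 for 4 days. The labels give silncMDSC by this name only, and the study's methods describe its array experiment as a knockdown of lnc-C/EBPβ, a long non-coding RNA, which no probe set used here names, so the knockdown itself was not analysed here. The cultures were mixed populations with no sort stated for the arrays, and neither the age or sex of the mice nor their number is given in the sources used here. With a single array for each of the 2 groups, no test was run, the differences have no replicate check, and every value describes these arrays alone. All 9 myeloid markers examined, among them Itgam (CD11b), Ptprc (CD45) and S100a8, were above the floor on both arrays, and their differences ran from -0.15 to 0.17 on the log2 scale.

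The proteasome degrades proteins that carry ubiquitin chains. Its barrel-shaped core, the 20S particle, is built from outer rings of alpha subunits and inner rings of beta subunits, and only the beta subunits Psmb5, Psmb6 and Psmb7 cut peptides. A 19S cap, made of a base with a ring of ATPases and a lid that removes ubiquitin, unfolds the protein and feeds it into the core. In leukocytes and under interferon-γ, Psmb8, Psmb9 and Psmb10 take the places of Psmb5, Psmb6 and Psmb7 during assembly, and the resulting immunoproteasome supplies many of the peptides shown on MHC class I. In bulk cultures, fewer cells of a type and less RNA per cell cannot be told apart.

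The promoters of Psmb5, of Psmb8, which takes its place in the immunoproteasome, and of Psmb9, which lies beside the peptide transporter gene Tap1, are shown because these genes lay on opposite sides of 0. Each is the run of 200 bases before the annotated start in RefSeq on GRCm38.p6, read in the direction of the gene, at chr14:54617996-54618195 (minus strand) for Psmb5, chr17:34197995-34198194 (plus strand) for Psmb8 and chr17:34187331-34187530 (minus strand) for Psmb9. Capitals mark the letters matched by the motif search described further on, an antioxidant response element in Psmb5, a gamma-activated site in Psmb8 and a CCAAT box in Psmb9.
Psmb5: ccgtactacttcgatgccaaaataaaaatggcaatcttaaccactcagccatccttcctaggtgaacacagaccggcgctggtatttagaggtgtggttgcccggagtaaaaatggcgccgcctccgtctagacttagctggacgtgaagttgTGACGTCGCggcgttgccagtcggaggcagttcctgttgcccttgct
Psmb8: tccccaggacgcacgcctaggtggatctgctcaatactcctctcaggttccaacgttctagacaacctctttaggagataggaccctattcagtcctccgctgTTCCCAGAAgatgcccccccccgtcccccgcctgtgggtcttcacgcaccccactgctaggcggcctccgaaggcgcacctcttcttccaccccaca
Psmb9: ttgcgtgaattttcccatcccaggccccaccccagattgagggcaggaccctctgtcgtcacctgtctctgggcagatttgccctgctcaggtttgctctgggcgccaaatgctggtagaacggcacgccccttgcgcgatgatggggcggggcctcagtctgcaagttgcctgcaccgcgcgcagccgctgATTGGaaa

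Most proteasome genes were slightly lower in the silncMDSC culture. Of the 3 immunoproteasome genes, Psmb9 was higher, Psmb8 was higher by little and Psmb10 was slightly lower. Of the 45 genes above the floor, 37 were lower and 8 higher, which is 82.2% lower, whereas 50.7% of all genes above the floor were lower and 49.3% higher. The median difference, taken as log2(intensity + 1) of silncMDSC minus control, was -0.14 over the 45 genes and -0.002 over all genes. The differences were small. At least 1.2-fold lower were 10 of the 45 genes (22.2%), against 10.6% of all genes, and 1 gene, Psmb9, was at least 1.2-fold higher, against 6.96% of all genes. None of the 45 genes reached 1.5-fold in either direction, a size that 1.42% of all genes reached below control and 0.948% above it. At the 2-fold threshold named in the study's methods the shares of all genes were 0.134% lower and 0.168% higher, and again 0 of 45 members were that far apart.

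**Figure D1:**
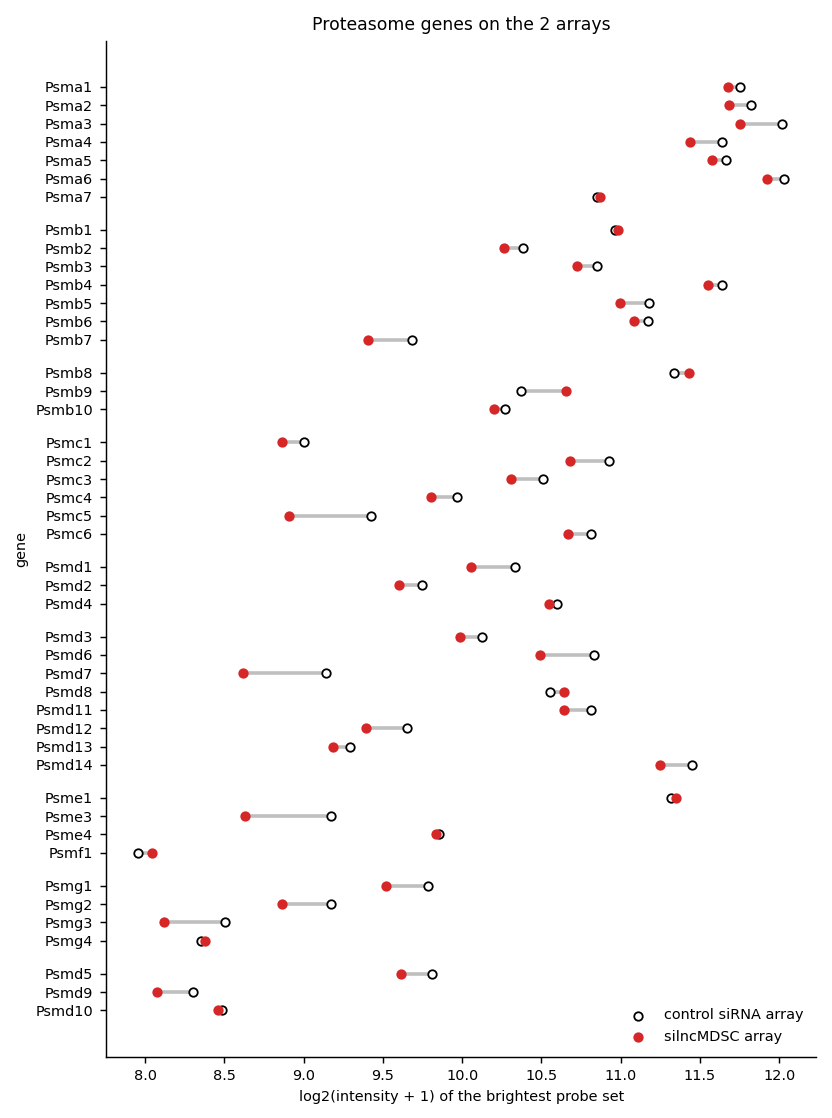
Each row is 1 of the 45 proteasome genes above the floor, grouped by part, with its log2(intensity + 1) along the x axis, as open circles for control siRNA and red circles for silncMDSC. The red circle lies left of the open one for 37 genes, Psmb9 has the widest gap to the right, and positions compare the arrays within a gene, not 1 gene with another.

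The alpha ring, which gates the entry to the core, was lower in 6 of 7 members, with a median difference of -0.11. The intensity of Psma3 was 4149 in control and 3455 in silncMDSC, Psma4 had 3183 and 2776, and Psma2 had 3625 and 3284. All 3 were lower in silncMDSC, with log2 differences of -0.26, -0.20 and -0.14, and Psma3 was the only alpha subunit at least 1.2-fold lower. Psma7 was nearly level, with 1846 and 1871. Psma8, the alpha subunit of the testis, was below the floor on both arrays, with 37.5 in control and 35.3 in silncMDSC.

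The constitutive beta ring was also lower in 6 of 7 members, with a median of -0.12. Among its cutting subunits, Psmb7, which gives the trypsin-like activity, had 820 in control and 676 in silncMDSC, a difference of -0.28 and the largest in the core. Psmb5, which gives the chymotrypsin-like activity, had 2315 and 2044 (-0.18), and Psmb6, which gives the caspase-like activity, had 2311 and 2170 (-0.09). The subunits without a cutting site ran from -0.13 for Psmb3 (1849 and 1690) to 0.02 for Psmb1 (1997 and 2020). Psmb11, which belongs to the thymus form of the core, was below the floor on both arrays, with 60.6 and 64.1.

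The immunoproteasome genes had higher differences than their constitutive partners, and of the 3 only Psmb9 reached 1.2-fold. Psmb9 had 1324 in control and 1614 in silncMDSC, 1.22-fold higher. It was read by 1 probe set only, as were Psmb10, Psmb5, Psmb6 and Psmb7. Psmb8 had 2588 and 2759, 1.07-fold higher, and its other probe set above the floor differed by 0.03. Psmb10 was on the other side, with 1235 and 1176 (-0.07). Relative to the subunit whose place it takes, each of the 3 was higher in silncMDSC: the log2 difference of Psmb9 exceeded that of Psmb6 by 0.38, that of Psmb8 exceeded Psmb5 by 0.27, and that of Psmb10 exceeded Psmb7 by 0.21. For the pair of Psmb10 and Psmb7 this came from a larger shortfall of Psmb7, since both were lower. Gaps between other pairs of genes were not computed, so these 3 have no background beside them. At the largest, Psmb9 had 694 of the 11920 genes as far above control as itself or farther. For Psmb8 this count was 3411.

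Psmb9 and Psmb8 lie together with Tap1 and Tap2, the transporter genes that carry peptides into the endoplasmic reticulum, in the order Psmb9, Tap1, Psmb8, Tap2 on chromosome 17 of GRCm38.p6. All 4 were higher in silncMDSC, Tap1 with 793 in control and 871 in silncMDSC (0.13) and Tap2 with 531 and 637 (0.26). H2-Ob, the neighbour beyond Tap2, which encodes a class II accessory chain of B cells and dendritic cells, had 111 in control and 224 in silncMDSC, the widest gap among these neighbours. Psmb8 and Tap1 differed little, and H2-DMb1, the neighbour before Psmb9, had no value under the rule of a single symbol. Higher values were seen in neighbours that are not proteasome genes as well.

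Markers of several cell types differed between the arrays as well. Of 11 dendritic cell markers above the floor, 10 were higher in silncMDSC and 5 at least 1.5-fold higher (median 0.41). The largest differences were those of H2-Eb1 (0.75), Ciita (0.70), Itgax (0.66) and Ccr7 (0.64). Flt3 (0.34) and Zbtb46 (0.14) differed less, and Cd209a was lower (-0.11). Intensities of the list summed to 16818 in control against 22786 in silncMDSC. Most of both sums came from H2-Aa, H2-Ab1, H2-Eb1 and Cd74, genes of MHC class II and its invariant chain. The cross-presenting cell marker Xcr1 was below the floor on both arrays. Of 10 macrophage markers, 10 were lower and 5 at least 1.5-fold lower (median -0.47), with sums of 14769 and 11800. Mrc1 (-0.93), Msr1 (-0.91), Apoe (-0.88) and Maf (-0.85) lay farthest below control. Adgre1 was level, with 3070 in control and 3068 in silncMDSC (-0.001), and C1qa was nearly level (-0.03). The macrophage list was therefore split, and its count of lower genes includes genes that hardly differed. T and NK cell markers had 6 of 8 above the floor, 4 of them higher and 2 lower, and sums of 1693 and 1935. Only Klrd1 of these was at least 1.5-fold apart, with 281 in control and 528 in silncMDSC (0.91). B cell markers had sums of 767 and 752 over 4 genes, and eosinophil markers 3 of 5 above the floor and sums of 2673 and 3845. No marker of these lists was at the lowest intensity of 1. The part of these cells in the values of Psmb8, Psmb9 and the other proteasome genes was not tested.

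**Figure D2:**
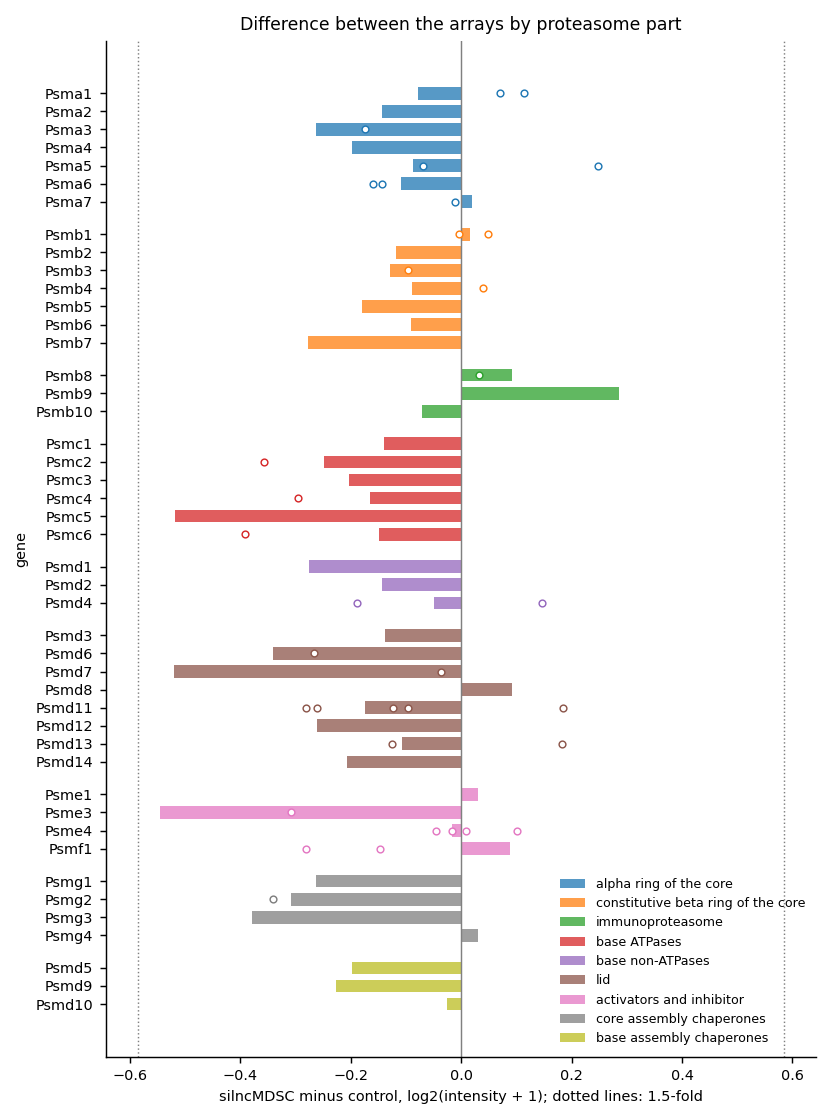
Bars run along the x axis to the difference of log2(intensity + 1), silncMDSC minus control, for the brightest probe set of each of the 45 genes, coloured by part, and open circles give the other probe sets of the gene above the floor. Most bars point left, to -0.54 for Psme3, Psmb9 points farthest right at 0.29, and none reaches the dotted lines at 1.5-fold.

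In the 19S cap, 16 of 17 members lay below control, with a median of -0.17. All 6 ATPases of the base, which unfold the substrate, were lower. The brightness of Psmc5 was 688 in control against 480 in silncMDSC, which is 1.43-fold lower, and 241 of the 11920 genes lay as far below control or farther. Psmc2 had 1948 and 1638 (-0.25), and Psmc3 had 1459 and 1268 (-0.20). The remaining ATPases, Psmc1, Psmc4 and Psmc6, ran from -0.17 to -0.14. Psmc5 was thus the farthest of the ring and was read by 1 probe set only, whereas Psmc2, Psmc4 and Psmc6 each had a second probe set above the floor that was lower still, at -0.36, -0.30 and -0.39.

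The other base subunits were lower as well. Psmd1, a scaffold of the base, had 1287 and 1063 (-0.28), and Psmd2, the other scaffold, had 857 and 776 (-0.14). Psmd4, which binds ubiquitin chains, was nearly level on its brightest probe set, with 1549 and 1497 (-0.05), and its other 2 probe sets disagreed, at -0.19 and 0.15. The direction of Psmd4 is therefore uncertain on these arrays.

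In the lid 7 of 8 members were lower, with a median of -0.19. Psmd7, the inactive partner of the deubiquitinase Psmd14, went from 563 on the control array to 392 on the silncMDSC array, 1.43-fold lower. A dimmer probe set of Psmd7, close to the floor at 83.0 and 81.0, differed by -0.04. Psmd6 had 1822 and 1439, 1.27-fold lower, and its second probe set gave -0.27. Psmd12 had 805 and 672 (-0.26), and Psmd14, which cuts ubiquitin chains from the substrate, had 2802 and 2426 (-0.21). Psmd6 was thus lower by similar amounts on both probe sets, while the size for Psmd7 rested on 1 of its probe sets. Psmd8 was the exception of the cap, with 1501 and 1600 (0.09).

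The activators that can replace the cap differed among themselves. Psme3, the nuclear activator PA28γ, went from 576 in control to 394 in silncMDSC, 1.46-fold lower and the farthest of all 45 genes, and its second probe set gave -0.31. Psme1, the alpha chain of the interferon-induced activator PA28, had 2546 and 2602 (0.03). The beta chain Psme2 was not counted, because its probe set is annotated to both Psme2 and Psme2b. That probe set had 2129 and 2120 (-0.01). Psme4, the activator PA200, was nearly level, with 925 and 914 (-0.02), and the inhibitor Psmf1 was uncertain, at 0.09 on its brightest probe set (247 and 263) and at -0.15 and -0.28 on its others. The interferon-induced activator chains were therefore close to level, and the nuclear activator was lower.

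Chaperones that build the proteasome were mostly lower too. Over the 7 assembly genes the median was -0.23, beside -0.14 for the 31 core and cap subunits, with 6 lower and 3 at least 1.2-fold lower. Psmg3 had 361 in control and 277 in silncMDSC (-0.38), Psmg2 had 577 and 465 (-0.31), and Psmg1 had 882 and 734 (-0.26). These are chaperones of the alpha ring, and their partner Psmg4 was nearly level at 325 and 332. Among chaperones of the ATPase base, Psmd9 had 314 and 269 (-0.23), Psmd5 had 898 and 783 (-0.20), and Psmd10 (gankyrin) had 358 and 351 (-0.03, a sign that turned to 0.01 after quantile normalization). The genes set apart, Psmc3ip, a meiotic recombination factor, and Psme3ip1, which binds PA28γ, differed by -0.19 and -0.04.

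**Figure D3:**
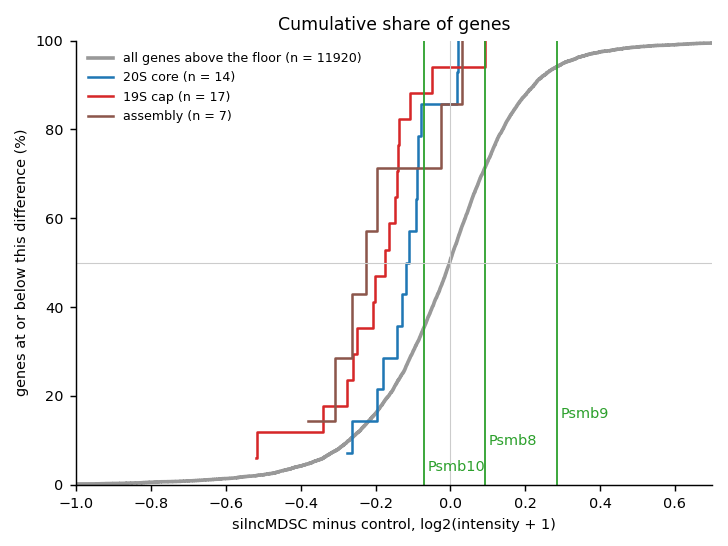
Curves give the share of genes (y axis, %) at or below each difference in log2(intensity + 1), silncMDSC minus control (x axis, cropped), for all 11920 genes above the floor (grey), the 14 core genes, the 17 cap genes and the 7 assembly genes. The 3 coloured curves lie left of the grey one over most of their range, and the green lines mark Psmb10, Psmb8 and Psmb9.

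Other probe sets gave the same direction for most genes. Of the 45 genes, 21 had another probe set above the floor, and for 17 of these the next brightest one lay on the same side of 0. The exceptions were Psma1, Psma7, Psmb4 and Psmf1, each within 0.10 of 0 on its brightest probe set. The median difference of these 21 genes was -0.11 on the brightest and -0.13 on the next brightest probe set, and the gap between both was 0.08 at the median and 0.48, for Psmd7, at the largest. Over all probe sets of the members above the floor, 61 of 80 were lower in silncMDSC. The matching shares over all genes were not computed, so these counts have no background beside them. Probe sets of 1 gene share the RNA sample and are not replicates.

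The differences were also set beside the level of the probe sets. Across the 45 genes, the difference and the mean log2 level had a Pearson r of 0.27, and across all 11920 genes one of -0.09; genes share the arrays and are not independent. With a loess trend on level removed, 36 of the 45 genes were lower and the median was -0.11, beside -0.14 without this step. Spikes added to the samples lay on the other side, with medians of 0.11 over 18 probe sets of hybridisation spikes and 0.16 over 27 of poly-A spikes, while the median of all genes was -0.002. The part of these offsets in the proteasome values was not tested.

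Genes that work with the proteasome were mixed. Among 10 partners without a Psm symbol above the floor, 6 were lower and 0 reached 1.5-fold (median -0.06). Pomp, the maturation factor of the core, had 2710 in control and 2445 in silncMDSC (-0.15), the cap deubiquitinase Uchl5 had 1873 and 1584 (-0.24) and Zfand2a, a stress-induced ubiquitin binder, had 392 and 319 (-0.29), while Ecpas, which tethers cap to core, had 330 and 411 (0.31). Genes of ubiquitin activation, shuttling and extraction were lower in 8 of 9 (median -0.13), led by the shuttle Rad23b with 1552 and 1207 (-0.36) and Nploc4, a cofactor of the unfoldase Vcp, with 707 and 566 (-0.32). The ubiquitin-activating enzyme Uba6 had 395 and 339 (-0.22), whereas the autophagy receptor Sqstm1 had 620 and 716 (0.21). Of the factors that drive transcription of the subunits, Nfe2l1, which raises proteasome genes when the proteasome is impaired, was nearly level, with 506 and 494 (-0.03), its relative Nfe2l2 (NRF2) differed by -0.15, and the median over 4 such genes was -0.06.

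The class I peptide route and its interferon control did not move one way. Of 11 class I genes 8 were lower and 0 reached 1.5-fold (median -0.05), with Tap2 (0.26) and Tap1 (0.13) higher and Nlrc5, the class I activator, lower (301 in control and 247 in silncMDSC, -0.28). The peptide-trimming enzyme Erap1 had 352 and 309 (-0.19) and the chaperone Calr (calreticulin) had 4023 and 3630 (-0.15). Of 13 interferon regulators and targets above the floor 9 were higher, and 2, Cxcl10 (114 and 64.5, -0.82, below the floor in silncMDSC) and Ifit1 (711 and 465, -0.61), were at least 1.5-fold lower (median 0.04). The receptor chain Ifngr1 had 1167 and 1473 (0.34) and the kinase Jak2 had 1155 and 1404 (0.28), whereas Irf1, which drives Psmb9, had 625 and 692 (0.15). Ifng itself was below the floor on both arrays, with 24.0 and 29.1. The interferon target Gbp2 had 426 and 502 (0.24), so targets on this list lay on both sides of 0.

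**Figure D4:**
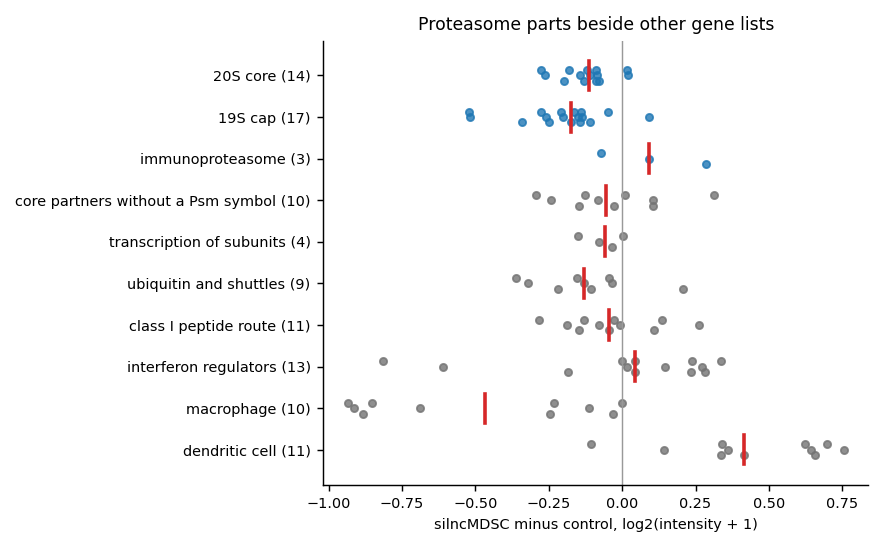
Each point is 1 gene above the floor, placed along the x axis by its difference in log2(intensity + 1), silncMDSC minus control, with the number of genes of each list in brackets and its median in red. The core and the cap lie mostly left of 0 with narrow spreads, while many macrophage and dendritic cell markers lie farther out on opposite sides.

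Of the 4 motifs searched in the promoters, 2 were in similar shares of members and of all genes. The other 2 were in 3 windows and 1 window of members, too few for their shares to be compared. RefSeq windows on GRCm38.p6 were at hand for 38 of the 45 genes, and 200 bases before the start were searched on both strands, in the first window listed for a gene. The antioxidant response element to which Nfe2l1 and Nfe2l2 bind, searched as TGACNNNGC or TGAGNNNGC, was in 9 of the 38 windows (23.7%) and in 22.3% of the windows of all genes above the floor. The CCAAT box, searched as CCAAT, was in 13 (34.2%) against 32.3%. The interferon element, searched as GAAA followed after any 2 bases by GAAA, was in 3 windows (7.89%, Psmb3, Psmd4 and Psmd9) against 2.04%, and the gamma-activated site TTCNNNGAA in 1 (2.63%, Psmb8) against 4.53%. Members with an antioxidant response element had a median difference of -0.18 and those without one -0.14. For the CCAAT box these medians were -0.13 and -0.15, and for the interferon element -0.13 and -0.14, so the order turned the other way. In the windows printed above the element of Psmb5 spanned positions -47 to -39 from the start, the site of Psmb8 positions -97 to -89 and the reversed CCAAT box of Psmb9 positions -8 to -4. None of the 3 windows held another of the motifs searched, and a match is a description of letters, not of binding.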

How the data were processed

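Total RNA of each culture (6 µg per the labels) was labelled with biotin and, per the methods, hybridised to an Affymetrix GeneChip array of the mouse genome. The intensity values deposited by the authors are linear, with a lowest value of 1 on both arrays. The submitters' processing notes name RMA without a version, and no source used here says how the values reached the linear scale. The number of arrays limits the precision. Leaving out 64 control probe sets, the platform annotation, which can be old, gave 1 gene symbol for 34945 of 45037 probe sets, several for 932 and none for 9160. Entrez identifiers matched 34741 of the 34945 to RefSeq, and no symbol changed.

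Differences are log2(intensity + 1), silncMDSC minus control, which slightly understates folds of dim genes. The methods name limma with a 2-fold threshold, but 1 array per group leaves no residual degrees of freedom. The members, the lists and the roles of subunits were chosen with earlier results of these data known. Values are given for the 3 members of each part with the largest differences, the immunoproteasome subunits with their partners, Psme1, Psme2 and any member 1.5-fold apart, and up to 4 genes of each other list by the same measure. Psma7, Psma8, Psmb1, Psmb11, Psmd8, Psmd14, Psme4, Psmg4, Tap1, H2-Ob, Gbp2, Irf1, Ifng, Adgre1, C1qa, Flt3, Zbtb46, Cd209a, Cd74, H2-Aa, H2-Ab1 and genes singled out for their probe sets or sign were added after their values were seen. The scripts (Python 3.11.15, pandas 2.3.3, statsmodels 0.14.6) were tested on simulated data. Alternatives were other scalings, a pseudocount of 16, other floors, other choices of probe set and other thresholds.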

Additional observations from a re-analysis of the deposited data

How the results depend on the processing

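No paired analysis was possible because each group held 1 array. A value was counted as moved when it changed by 0.1 or more on the log2 scale, or a count by more than 1.5 times, since no replicate spread exists. Of 413 values recomputed over 44 results, 404 did not move. This count says little about small differences, because the limit of 0.1 is close to the median of all members. Psmd10 changed sign under quantile normalization (-0.03 to 0.01) without counting as moved. Raising the floor, or judging it by the average of both arrays, returned the main value for every result, so these settings could not reveal a change. The median of all members ran from -0.14 to -0.11 and the number of members lower from 35 to 38, the highest with no floor, where 47 were counted. The core ran from -0.12 to -0.08, the cap from -0.21 to -0.14, assembly from -0.24 to -0.20 and the immunoproteasome from 0.01, without Psmb9, to 0.13. At 1.2-fold in place of 1.5-fold, 10 members were lower and 1 higher. The median of the activators and inhibitor changed sign from 0.01 to -0.08 with the mean of all probe sets, as did Psmf1 (0.09 to -0.14). That setting also took Psmd7 to -0.10, Psme3 to -0.30, Psmd9 to -0.12, Psmg2 to -0.20 and Psmg3 to -0.20. Without cross-hybridising probe sets Psmc2 was -0.36. With 1 array per group, differences of the size seen in most members cannot be told from variation between cultures or arrays.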
